A study of Sebastes mystinus with 44 samples.

Results

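White muscle of juvenile blue rockfish (Sebastes mystinus) held for 2 weeks in seawater of lowered oxygen was compared with white muscle of fish held for the same time in control seawater. The low oxygen group, named DO in the labels, and the control group each held 4 fish, so 8 of the 44 fish of the series entered the comparison, chosen by the exposure and time in their labels. Oxygen was lowered by bubbling nitrogen into flowing seawater. No oxygen level was given in the sources used here. All juveniles came from 8 aquaria of 10 fish each, kept at 11.4 to 12.3 °C, and no strain, genotype or exact age was stated for either group. The aquarium of each fish was not stated, so fish of one group may share water and an effect of aquarium cannot be told apart from that of oxygen. Other fish of the same time helped to estimate the spread between fish. They were 2 fish in seawater of lowered pH made by bubbling carbon dioxide (group pH) and 4 fish of the group named cross, which the labels do not define and which is, from what is known of the study, the combined exposure.

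White muscle is the fast, anaerobically fuelled bulk of a fish's trunk and powers short bursts of swimming. In fish and mammals, low oxygen stabilises hypoxia-inducible factors, transcription factors that raise genes of glycolysis, oxygen transport and growth restraint, and longer exposure is known for lowering protein synthesis and energy demand in muscle. Whether genes of these pathways moved could not be read here, because the assembled features carry no gene names. For the same reason the tissue label could not be checked against muscle markers, and no level of a red blood cell or skin marker can be given.

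A feature here is one gene-level cluster of a de novo assembly made without a genome. The identifiers start with TRINITY, and those sharing all but the last number come from one component of the assembly, which can hold fragments or near-identical copies of one gene. Levels are in CPM, the usual count relative to library size, scaled by TMM, which sets the bulk of features equal between libraries. CPM is not corrected for length, so it compares fish and not features. The 8 libraries held 12840630 to 17913387 counts in control fish and 14828922 to 16687661 in DO fish. Relative to the library total, before TMM scaling, 3 counts in 1 library thus equalled 0.167 to 0.234 CPM. No pair of fish of one group differed as little as sampling noise. Of the 112243 features with a count at 2 weeks, 26595 had enough counts to be tested.

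After 2 weeks of low oxygen, 1 of 26595 features passed the test (edgeR quasi-likelihood, Benjamini-Hochberg adjusted p under 0.05), which is 0.00376% of those tested. That feature, TRINITY_DN45419_c4_g1, rose 4.87-fold. The next smallest adjusted p was 0.188, and 7 features lay under 0.3. With the threshold set on unadjusted p under 0.05, 2123 features met it, against 1330 that a 5% rate would give in features with no difference. Of these, 1094 (4.11% of those tested) were higher in DO fish and 1029 (3.87%) lower. Relative to the library total instead of TMM, the median of all features moved from 0.01 to -0.28 on the log2 scale and the unadjusted count became 217 higher and 2732 lower, so the balance of directions is one relative to the bulk of features.

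Differences were small for most features. The median size of the log2 fold change was 0.28, and the 5th and 95th percentiles of all features were -0.80 and 0.91. The 95% interval of the fold change lay wholly within 2-fold in 12028 features (45.2%). This share depended on abundance, with 15.8% of features under an average log2 CPM of 1 and 82.2% of those at 7 or more. For the other features the interval left room for a change of 2-fold or beyond. The biological coefficient of variation, the fitted spread between fish of a group, was 34.6%.

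**Figure D1:**
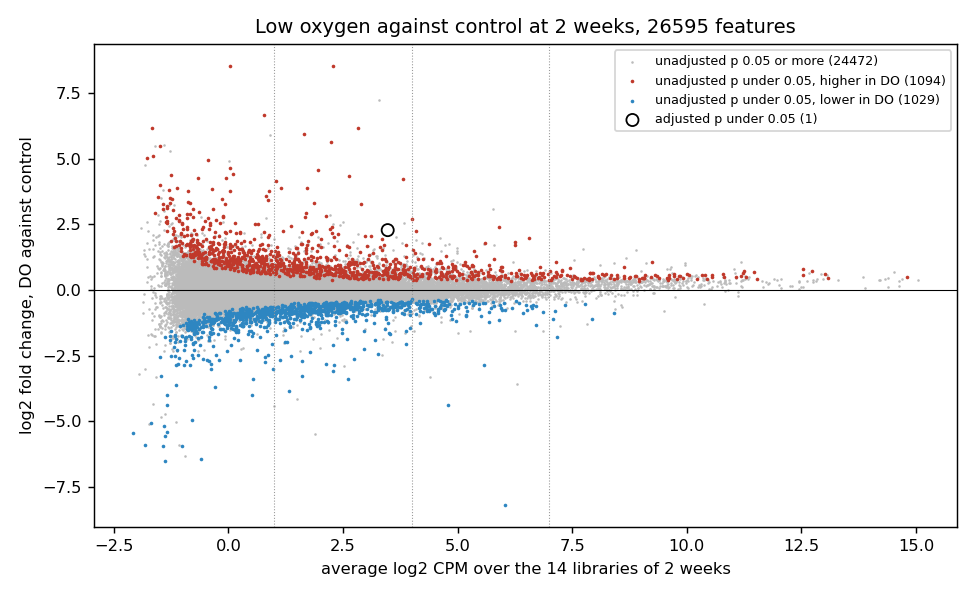
Log2 fold change of DO against control fish at 2 weeks (TMM scaling) against the average log2 CPM of each of 26595 features, with features at an unadjusted p under 0.05 in colour and the 1 feature past the adjusted threshold ringed. The spread narrows from left to right, and the points at an average log2 CPM of 7 or more lie mostly above 0, a position that is lost when levels are taken relative to the library total.

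The feature that rose, TRINITY_DN45419_c4_g1, was measured at 4.34, 6.20, 4.47 and 3.70 CPM in the 4 control fish. In the 4 DO fish it stood at 29.9, 19.4, 21.2 and 20.7 CPM. The groups did not overlap, and the lowest DO fish stood above every control, pH and cross fish. Its log2 fold change was 2.28 ± 0.23 (SE, n = 4 per group), with a 95% interval of 1.80 to 2.77 and an adjusted p of 0.000415 from edgeR. Leaving out any 1 of the 8 fish gave 2.13 to 2.44. The fit of all 44 libraries, used below for changes between times, gave 2.26 ± 0.48 (SE) for the same contrast. Its adjusted p there was 0.282 from edgeR, so the feature did not pass in that fit.

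All deposited values of TRINITY_DN45419_c4_g1 at 2 weeks were whole numbers, so no read of it was shared out in fractions with another feature. Its component holds 1 other tested feature, far more abundant, at 512 ± 48.7 CPM in control and 748 ± 136 CPM in DO fish (SD, n = 4 each). The named feature made up 0.902 ± 0.167% of both together in control fish and 3.04 ± 0.843% in DO fish (SD, n = 4 each). With counts summed over each component the log2 fold change was 0.56 and the adjusted p from edgeR 0.570. The call thus held for the feature. The sum is mostly the other feature, whose own log2 fold change was 0.55 (unadjusted p = 0.0138, edgeR). It therefore cannot show whether the call holds.

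Features were ranked by p among those with an average log2 CPM of at least 1 and all DO fish on one side of the control mean. The second of those higher in DO fish, TRINITY_DN54278_c4_g1, had 3.96, 3.58, 4.36 and 5.52 CPM in control fish. DO fish had 9.36, 12.7, 8.22 and 9.11 CPM. Again every DO fish stood above every control fish. The log2 fold change was 1.17 ± 0.24 (SE, n = 4 per group), but the adjusted p from edgeR was 0.403, so it did not pass. It was the only tested feature of its component, and 78.6% of its deposited values at 2 weeks were not whole numbers, so part of its reads had been shared out with other features.

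Of the features lower in DO fish, TRINITY_DN47170_c0_g4 had the smallest p. Control fish had 1.83, 4.33, 4.63 and 2.71 CPM, and DO fish 0.759, 0.937, 0.943 and 0.792 CPM. The groups did not overlap, and the DO fish were closer to one another than the controls. Its log2 fold change was -1.97 ± 0.34 (SE, n = 4 per group) with an adjusted p of 0.188 from edgeR. The other tested feature of its component stood at 4.34 ± 0.645 CPM in control and 3.81 ± 0.767 CPM in DO fish (SD, n = 4 each), so that the named feature held 42.8 ± 13.4% of both in control and 18.6 ± 1.90% in DO fish. Summed over the component, the log2 fold change was -0.74.

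TRINITY_DN56060_c7_g2 was measured at 8.46, 7.64, 12.6 and 15.8 CPM in control fish. DO fish had 2.53, 5.68, 2.56 and 4.09 CPM, each below the lowest control. The log2 fold change was -1.57 ± 0.30 (SE, n = 4 per group) and the adjusted p 0.272 in edgeR. The other tested feature of its component leaned the other way, at 0.557 ± 0.263 CPM in control and 1.12 ± 0.528 CPM in DO fish (SD, n = 4 each). Its log2 fold change was 0.98 (unadjusted p = 0.0866, edgeR). The named feature held 94.8 ± 2.45% of both in control and 74.9 ± 13.6% in DO fish. Summed over the component, the log2 fold change was -1.30.

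Whether these features passed the threshold depended on the tool. In limma voom with sample weights 1 feature passed, TRINITY_DN45419_c4_g1, and each of the other named features had an adjusted p of 0.481. DESeq2 gave an adjusted p under 0.05 to 34 features (0.152% of the 22418 for which it gave one), 14 higher and 20 lower in DO fish. All 34 had the same sign in edgeR and an unadjusted p of at most 0.0043 there, and 30 showed no overlap between groups. Over all tested features, 2.17% had every DO fish above every control fish and 2.37% every DO fish below. Since the 34 were chosen by the same contrast in the same fish, these counts are a description. All 4 named features were among the 34, with adjusted p from DESeq2 of 0.016 for TRINITY_DN54278_c4_g1, 0.00219 for TRINITY_DN47170_c0_g4 and 0.00433 for TRINITY_DN56060_c7_g2. Without the filter on low counts edgeR called 189 features, 120 higher and 69 lower, with the named features among them, and 16 of the 189 were at 0 in a whole group. The edgeR call stayed at 1 feature with RLE factors, a minimum count of 30, the 8 fish alone or 1 surrogate variable.

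**Figure D2:**
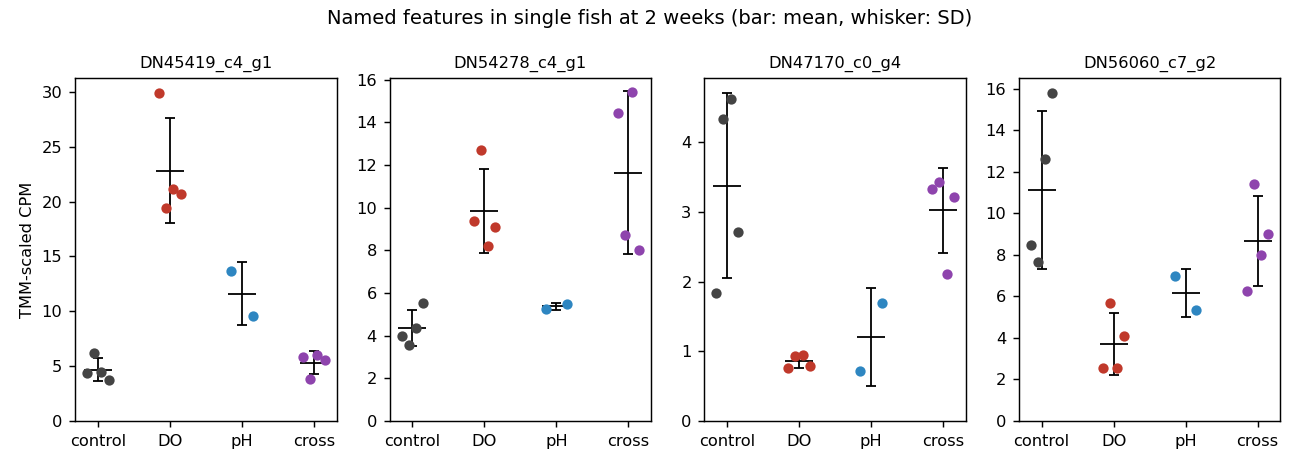
TMM-scaled CPM of the 4 named features in each fish of the 4 groups at 2 weeks, with each point 1 fish, the bar the mean and the whisker the SD. In the first panel the DO fish stand between 19.4 and 29.9 CPM and the control fish between 3.70 and 6.20 CPM.

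Behind these stand further features by the same ranking, taken to 20 in each direction and chosen by the contrast itself, so their differences are a description. The 20 higher in DO fish had log2 fold changes of 0.81 to 2.28 (median 1.17), and 12 were past 2-fold. In 17 of them the groups did not overlap. The 20 lower had a median of -1.20, with sizes from 0.71 to 2.65, and 13 were past 2-fold. In 19 of them the groups did not overlap. Over all tested features, 577 (2.17%) had all DO fish above all control fish and 631 (2.37%) all below, and relative to the library total these were 130 and 2056. The 40 features came from many components, 20 for the higher and 18 for the lower set.

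DO fish Mys57 gave many of the extremes in these sets. It was the highest DO fish in 16 of the 20 higher features and the lowest in 11 of the 20 lower ones. Over the 1094 features higher at an unadjusted p under 0.05, Mys57 was the highest DO fish in 531 (48.5%), against 28.7% of all tested features. Over the 1029 lower ones it was the lowest DO fish in 472 (45.9%), against 29.1%. Among control fish, Mys52 was the highest in 431 (41.9%) of the lower features, against 25.4% of all tested.

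The libraries themselves showed Mys57 somewhat apart. Its correlation with the other DO fish on log2 CPM was 0.919 to 0.928, while those fish correlated at 0.936 to 0.942 among themselves. Control fish correlated at 0.934 to 0.947 with one another, and DO with control fish at 0.908 to 0.946. The median SD of log2 CPM was 0.421 in DO and 0.389 in control fish, and it was 0.361 in DO fish without Mys57, within the 0.350 to 0.373 of sets of 3 control fish. The number of features at an unadjusted p under 0.05 was 1553 of 26529 tested without Mys57 and 1373 of 26205 without control fish Mys52. A 5% rate over the 26595 features of the main fit would give 1330, so the count without Mys52 was close to that rate. TRINITY_DN45419_c4_g1 passed without either fish. What sets Mys57 or Mys52 apart was not tested.

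**Figure D3:**
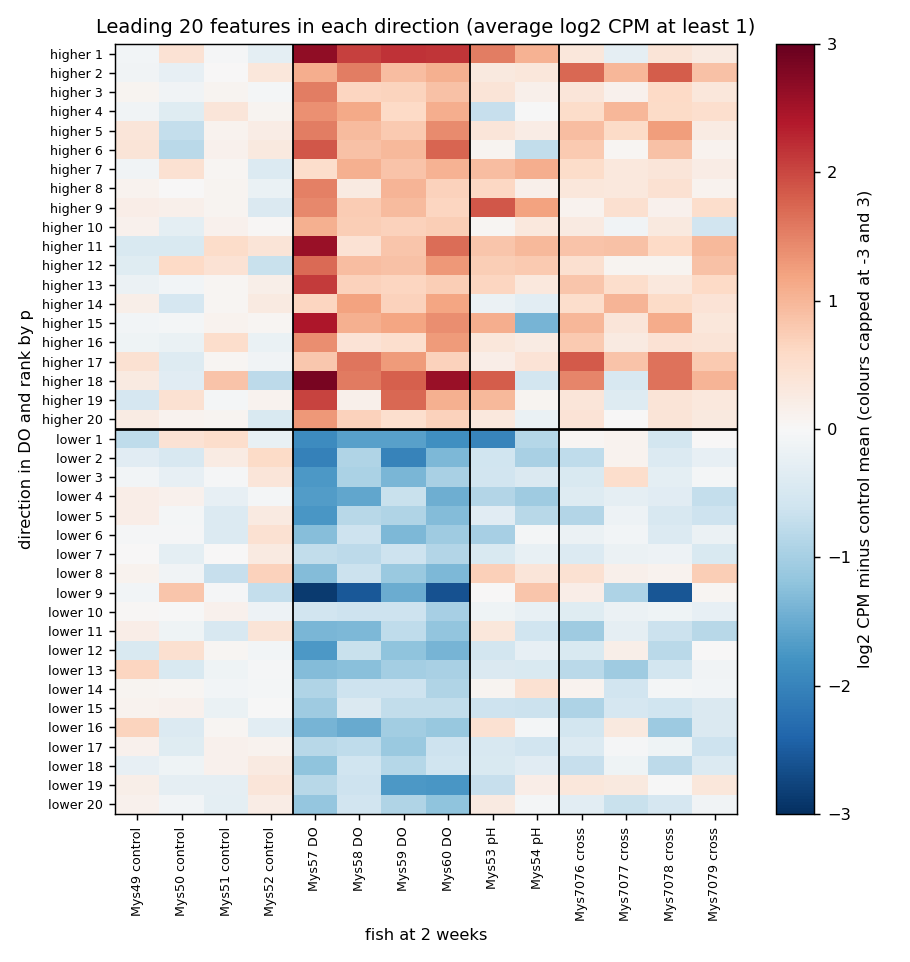
Log2 CPM minus the control mean for the 20 features of smallest p in each direction among those with an average log2 CPM of at least 1 and all DO fish on one side of the control mean (rows) in the 14 fish at 2 weeks (columns), with red above and blue below the control mean. The 4 DO columns are red in the upper and blue in the lower block, which is how the rows were chosen, and Mys57 is the deepest red of the DO fish in 16 of the upper rows.

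Abundant features leaned to one side under TMM scaling. Of 718 features with an average log2 CPM of 7 or more, 96 (13.4%) were higher in DO fish at an unadjusted p under 0.05 and 7 (0.975%) lower, while none passed adjustment and the smallest adjusted p from edgeR was 0.520. Under the library total the same class, 716 features there, had 4 higher and 30 lower. All 26595 features had 217 higher and 2732 lower in that fit. The lean of the class to the higher side was thus lost under the library total. The median log2 fold change of the class was 0.28 under TMM, with 87.5% above 0, and -0.01 under the library total. The gap to the median of all features was 0.27 under both.

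The per-fish values show the same. Relative to the control mean under TMM, the median log2 deviation of the abundant class was 0.43, 0.23, 0.31 and 0.13 in DO fish. Control fish had 0.13, 0.004, -0.03 and -0.09. The lowest DO fish lay just above the highest control fish. Under the library total the DO fish stood at -0.10, 0.06, 0.07 and -0.07 and overlapped the controls at -0.05, 0.07, 0.03 and -0.04.

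This class took 81.7 ± 1.39% of all counts in DO and 78.5 ± 1.89% in control fish (SD, n = 4 each; two-sided exact permutation p = 0.0571, 0.171 adjusted over 3 library measures, with 0.0286 the smallest p the design allows). The 100 most abundant features took 57.5 ± 2.61% and 54.1 ± 3.28% (exact permutation p = 0.2, adjusted 0.3). The number of features with a count was 50868 ± 2640 in DO and 52320 ± 4295 in control fish (exact permutation p = 0.571, adjusted 0.571). These 3 measures therefore did not pass a test over fish. The TMM factors were 0.803, 1.03, 0.979 and 1.01 in DO and 1.03, 1.22, 1.21 and 1.20 in control fish. The part of library composition in the lean of the abundant features was not tested.

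The number of abundant features at an unadjusted p under 0.05 also moved with the fish in the fit. It was 43 higher and 12 lower without control fish Mys52, and 46 higher and 12 lower without DO fish Mys57. Without pH fish Mys53, which has a TMM factor of 0.575 and belongs to neither group compared, it was 200 higher and 8 lower. With the 8 fish alone in the fit it was 208 higher and 5 lower. In the lower classes the directions under TMM were closer to even. Of 12497 features under an average log2 CPM of 1, 414 were higher and 410 lower. From 1 to 4 these were 419 and 509 of 10499. From 4 to 7 they were 165 and 103 of 2881 (5.73% and 3.58%), still with more higher than lower.

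**Figure D4:**
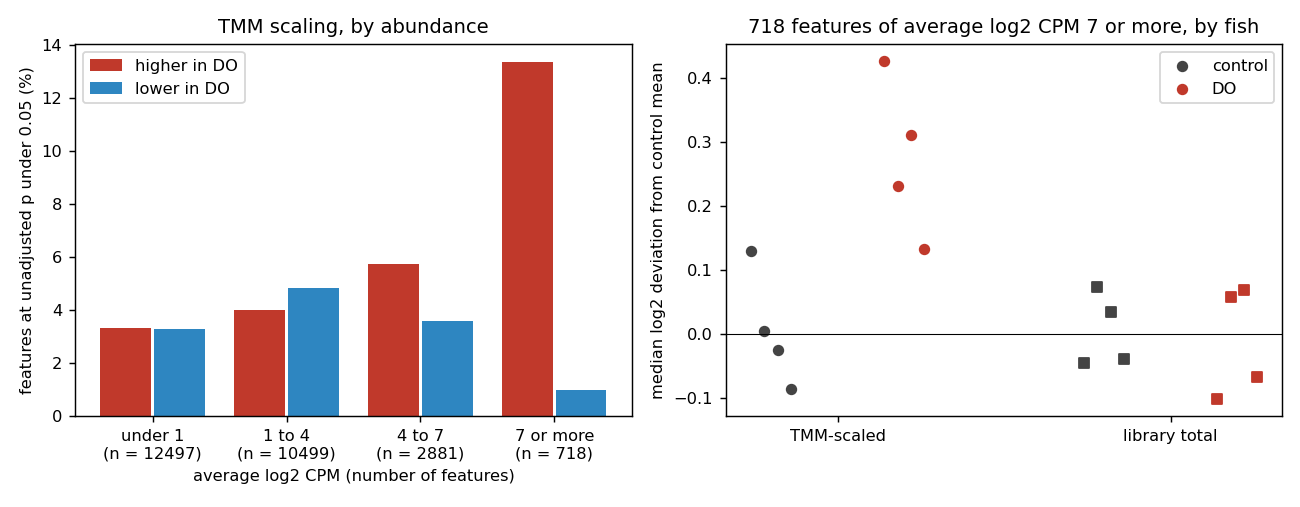
Left, the percentage of features at an unadjusted p under 0.05 in each class of average log2 CPM, split by direction under TMM scaling. Right, the median log2 deviation from the control mean over the features at 7 or more in each of the 8 fish, where the DO fish stand above the control fish under TMM and overlap them under the library total.

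Features of one component can share a gene, so agreement within components was counted. The tested features fell into 16999 components, of which 6024 held at least 2. Of the 115 components with at least 2 features at an unadjusted p under 0.05, 76 had them in one direction, 49 higher and 27 lower, and 39 had them in both. Of the 3636 components with exactly 2 tested features, 54.5% had both of one sign, and where both were at an unadjusted p under 0.05 this held for 25 of 35.

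Components with at least 4 features at an unadjusted p under 0.05 numbered 6, and since they were picked for that, their sums describe the choice. None passed the adjusted threshold over all components in edgeR. The smallest p belonged to a component of 4 tested features, all 4 lower in DO fish without overlap. Their summed level was 11.0, 10.3, 8.99 and 6.50 CPM in control fish and 2.28, 2.05, 3.50 and 2.77 CPM in DO fish. The log2 fold change of the sum was -1.80 ± 0.27 (SE, n = 4 per group), with an adjusted p of 0.065.

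The other components lower in DO fish numbered 3, each with 4 of 5 tested features at an unadjusted p under 0.05. The most abundant of them summed to 580, 662, 653 and 712 CPM in control and 307, 480, 475 and 402 CPM in DO fish, a log2 fold change of -0.66 (adjusted p = 0.570, edgeR). Another summed to 370, 326, 307 and 591 CPM in control and 138, 233, 190 and 205 CPM in DO fish, a log2 fold change of -1.07 (adjusted p = 0.4175, edgeR). In both the groups did not overlap, and the lowest DO fish was Mys57. The remaining one summed to 29.6, 78.4, 35.9 and 29.2 CPM in control and 22.9, 27.9, 20.9 and 22.6 CPM in DO fish, a log2 fold change of -0.89 (adjusted p = 0.570, edgeR), with control fish Mys50 far above the other controls. Its sums did not overlap either, but only narrowly, at 27.9 CPM in the highest DO and 29.2 CPM in the lowest control fish.

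The components higher in DO fish in most of these features numbered 2, both abundant. Their levels are given under TMM, where abundant features leaned higher in DO fish. Whether the groups separate under the library total was not tested for these components. All 5 tested features of the first component were at an unadjusted p under 0.05 without overlap under TMM, 4 higher and 1 lower. It summed to 3748, 3695, 4819 and 4224 CPM in control and 5567, 5486, 6226 and 5757 CPM in DO fish, with a log2 fold change of 0.47 (adjusted p = 0.5995, edgeR). In the second, 4 of 9 tested features were higher, and the sums overlapped, at 1593, 1020, 1330 and 1322 CPM in control and 2063, 1664, 1533 and 1771 CPM in DO fish, with a log2 fold change of 0.40 (adjusted p = 0.631, edgeR).

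Features present in one group and absent from the other were few and low. Of 98317 features with a count in the 8 fish, 61 had a count in every DO fish and in no control fish, and the largest of them summed to 20 counts. In the reverse direction 119 had a count in every control fish and in no DO fish. The largest of these had 6 to 13 counts in each control fish, a sum of 35, and so was at least 11.7-fold lower in DO fish against a floor of 3 counts over the group. The median sum was 7 counts in both sets, fewer than 2 counts per fish.

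The exposure was also sampled at 12 h and 24 h, with other control fish. TRINITY_DN45419_c4_g1 stood at 7.32, 21.8, 16.5 and 5.28 CPM in DO fish at 12 h, overlapping controls at 10.3, 3.86, 3.62 and 5.48 CPM (all values across times scaled over 44 libraries). At 24 h DO fish had 3.97, 2.52 and 5.79 CPM and controls 5.03, 2.65, 3.88 and 2.82 CPM, so the groups again overlapped. The log2 fold change at 2 weeks was larger by 1.13 ± 0.65 than at 12 h (SE, adjusted p = 0.808) and by 2.10 ± 0.70 than at 24 h (adjusted p = 0.443), and neither difference passed in edgeR.

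TRINITY_DN54278_c4_g1 separated at 24 h as well, with 7.87, 11.3 and 7.06 CPM in DO and 3.82 to 4.04 CPM in control fish. Its log2 fold change there was 1.17, with an unadjusted p of 0.0025 and an adjusted p of 0.246 from edgeR, so it did not pass. These values are from the fit of 44 libraries, in which its adjusted p at 2 weeks was 0.889. At 12 h the log2 fold change was 0.55. TRINITY_DN47170_c0_g4 had log2 fold changes of 0.78 at 12 h and 1.01 at 24 h, opposite in sign to 2 weeks, and the difference did not pass at either time (adjusted p = 0.756 and 0.567 from edgeR). Its control fish averaged 1.36, 1.34 and 3.37 CPM at 12 h, 24 h and 2 weeks, and its DO fish 2.32, 2.69 and 0.846 CPM. TRINITY_DN56060_c7_g2 had log2 fold changes of -0.05 at 12 h and 0.03 at 24 h. The difference from 2 weeks did not pass at either time (adjusted p = 0.699 and 0.542 from edgeR). Its DO fish averaged 3.43, 1.89 and 3.67 CPM at the 3 times, and its control fish 3.50, 1.95 and 11.1 CPM. The control fish of 2 weeks thus stood above these earlier averages, while the DO fish stayed near them. Cross and pH fish of 2 weeks also stood above them, averaging 8.68 and 6.15 CPM (scaled over the 14 libraries of 2 weeks). These changes of level between times were not tested.

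Over the wider sets, signs at the early times were compared with those at 2 weeks. Over all tested features, 51.6% were above 0 at 12 h and 45.3% at 24 h. Of the 20 leading higher features, 14 were above 0 at 12 h and 14 at 24 h, with medians of 0.26 and 0.21. Of the 20 leading lower features, 13 and 12 were above 0, with medians of 0.11 and 0.09. Of the 1094 higher features, 1010 were also tested at 12 h, and 49.1% had the same sign there, against 43.9% of 1028 at 24 h. For the 1029 lower features the shares were 38.5% of 915 and 42.4% of 920, so that 61.5% and 57.6% were above 0. For all tested features, both directions together, the same-sign shares were 46.5% and 46.7%. At both times a larger share of the lower features was above 0 than of all tested features. For the higher features the share above 0 was close to that of all tested features. These shares were not tested.

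No feature of 34070 passed a test of the change of the DO effect between 12 h and 2 weeks, or between 24 h and 2 weeks (edgeR). At an unadjusted p under 0.05 there were 2267 (6.65%) and 2891 (8.49%). Without 24 h control fish Mys25, 65 features passed the second of these tests. The abundant class stood above the median of all features by 0.23 at 12 h under TMM and by 0.24 under the library total, and by 0.10 and -0.03 at 24 h.

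**Figure D5:**
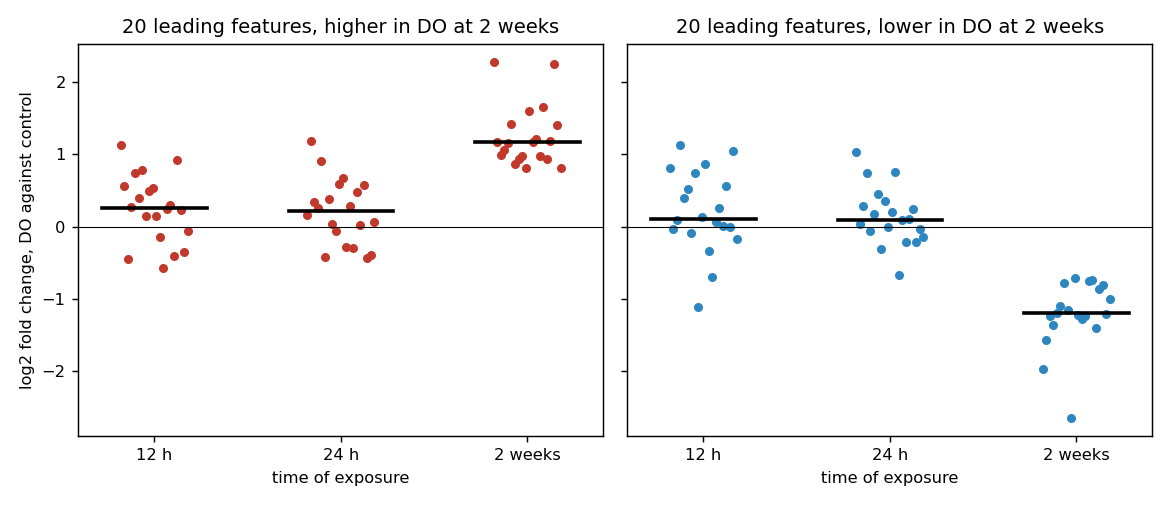
Log2 fold change of DO against control fish at 12 h, 24 h and 2 weeks for the 20 leading features in each direction, each point 1 feature and the bar the median. The features were chosen at 2 weeks, where the medians are 1.17 and -1.20, and at the earlier times the medians are 0.26 and 0.21 for the higher and 0.11 and 0.09 for the lower set.

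The other exposures of 2 weeks were set beside DO for the same features. TRINITY_DN45419_c4_g1 stood at 5.87, 3.78, 6.05 and 5.56 CPM in cross fish, inside the control range, and at 13.6 and 9.57 CPM in the 2 pH fish, between the groups. Cross fish were lower than DO fish by a log2 difference of -2.09 ± 0.23 (SE, n = 4 per group), with an adjusted p of 0.00134 over all features in edgeR, and leaving out 1 fish gave -2.16 to -1.93. The DO fish of this comparison are those by which the feature was chosen. It was the 1 feature of 26595 that passed between cross and DO fish. Fish of the cross group carry a separate run of numbers, and a difference in their handling cannot be told apart from the exposure.

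TRINITY_DN54278_c4_g1 had 14.4, 8.73, 15.4 and 8.02 CPM in cross fish and 5.26 and 5.48 CPM in pH fish. Cross fish overlapped DO fish, with a log2 difference of 0.24 and a 95% interval of -0.25 to 0.74. TRINITY_DN47170_c0_g4 had 3.33, 3.42, 2.11 and 3.22 CPM in cross fish and 0.711 and 1.70 CPM in pH fish. Its difference of cross from DO fish was 1.80 on the log2 scale, with an adjusted p of 0.326 from edgeR. TRINITY_DN56060_c7_g2 had 6.27, 11.4, 7.99 and 9.01 CPM in cross and 6.97 and 5.33 CPM in pH fish, and a difference of 1.21 from DO that did not pass (adjusted p = 0.487, edgeR).

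Cross, pH and DO fish share their controls, so the fold changes of the leading sets are given side by side only. The 20 higher features had a median log2 fold change against control of 1.17 in DO, 0.47 in cross and 0.31 in pH fish. The 20 lower features had -1.20, -0.34 and -0.41. Over all tested features the medians were 0.01 in DO, 0.01 in cross and -0.07 in pH fish.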

How the data were processed

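Per the labels' protocols, stranded mRNA libraries of white muscle were prepared in 2 sets of 24 in randomized order; the set of each fish was not stated. The tools named, without order or role, per the submitters' processing notes are RSEM 1.3.0, Bowtie, edgeR, Trimmomatic 0.36 and FastQC 0.11.5. The deposited values are expected counts (estimated reads per assembled feature, not normalized), here rounded to whole numbers. How the assembly was made is not stated. No deposited table pairs features with gene names.

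In R 4.3.3, the 14 libraries of 2 weeks (4 group means) were fitted with the robust two-sided quasi-likelihood F test of edgeR 4.0.16 (TMM, filterByExpr), Benjamini-Hochberg adjusted over 26595 features. The filter asked for 15 counts in total and a level equal to about 10 counts in a library of median size. That level had to be met in only as many libraries as the smallest group, the pH fish, held. Changes between times used 44 libraries and 34070 features. Log CPM used a prior count of 2. Intervals and floors cover 95% and 3 counts; floors cover counting error only. The test was tried on simulated counts, drawn independently for each feature and fish. No simulated fish was set apart from its group, so the trial does not cover a deviating fish.

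Named features were the 2 higher and 2 lower by smallest p, with an average log2 CPM of at least 1 and all DO fish on one side of the control mean. Members, classes and lists were chosen with earlier results of these data known. Pathway and marker lists needed gene names and were not run.

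Alternatives were RLE factors, no filter, a minimum count of 30, the 8 fish alone, counts summed over components, 1 surrogate variable (sva 3.50.0), voom of limma 3.58.1 with sample weights, DESeq2 1.42.0, and each fish left out. The library total, a fit without pH fish Mys53, and the tests of library composition were added after seeing the data. P-values treat fish as independent.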

Additional observations from a re-analysis of the deposited data

Results flagged for a closer look

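Each group of 4 fish was searched for a single fish far from the others, in 34 groups of values; chance alone would mark about 1 in 20. DO fish Mys57 stood apart for TRINITY_DN45419_c4_g1 at 29.9 CPM, with the other DO fish at 19.4 to 21.2 CPM. Cross fish Mys7078 stood apart for TRINITY_DN47170_c0_g4 at 2.11 CPM, with the others at 3.22 to 3.42 CPM. At 12 h, DO fish Mys21 stood apart for TRINITY_DN54278_c4_g1 at 12.7 CPM, with the others at 5.62 to 6.60 CPM. Control fish Mys49 had a TMM factor of 1.03, with the other controls at 1.20 to 1.22.

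A difference between the cross and DO groups was found for TRINITY_DN45419_c4_g1. Cross fish were below DO fish by a log2 difference of -2.09 (edgeR, adjusted p = 0.00134, lower in 4 of 4 cross fish). The feature was chosen by its level in these DO fish, and handling or aquarium cannot be told apart from the exposure.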

How the results depend on the processing

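With edgeR the number of features past the adjusted threshold was 1, and it became 189 without the low-count filter and 0 with counts summed over components. DESeq2 gave 34 and voom 1. In the fit of all 44 libraries TRINITY_DN45419_c4_g1 did not pass at 2 weeks (adjusted p = 0.282, edgeR). The number at an unadjusted p under 0.05 was 5635 without the filter, 1296 with 1 surrogate variable and 1373 to 2666 with 1 fish left out. The 5635 were out of 112243 features tested, a share close to a 5% rate. With 1 surrogate variable 26595 features were tested, and a 5% rate over them would give 1330, so no excess over that rate remained there. The number with an interval within 2-fold was 26663 without the filter, which tested 112243 features. Features without overlap numbered 2186 relative to the library total (130 higher, 2056 lower) and 1954 without the filter. The number whose DO effect changed from 24 h to 2 weeks was 0 to 65 with 1 fish left out. Of the 189 features, 173 were also tested with the filter, and the causes of these shifts were not tested. No named feature changed sign under any alternative run. No paired analysis was possible because fish numbers are not shared between groups. Depth resolves no level under 3 counts, or 0.167 to 0.234 CPM before TMM scaling in the 8 libraries.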
